A study of Homo sapiens with 12 samples.

Results

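Dox-induced MIO-M1-CTG(648) cells were compared with non-induced MIO-M1-CTG(648) cells, chosen by the titles of the samples, over all probe sets with 1 gene symbol. The comparison held 6 of the 12 arrays of the series, 3 in each group. MIO-M1 is an established cell line of human Müller glia, the radial glial cells that span the retina. It was given a DMPK minigene behind a promoter that doxycycline (Dox) switches on, as a glial model of myotonic dystrophy type 1 (DM1), and RNA was hybridized to Clariom D Human arrays, whose probe sets cover coding and non-coding transcripts.

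Dox-induced MIO-M1-CTG(648) cells carried the minigene with 648 CTG repeats and received Dox at 1 μg/ml for 8 days. Non-induced MIO-M1-CTG(648) cells were the same line without Dox. Dox-induced and non-induced MIO-M1-CTG(0) cells, with 3 arrays each, carried the minigene with 0 repeats and show what Dox did without the repeat. All 4 groups came from 1 clone with the Tet3G transactivator under a CMV promoter, selected with G418. Both lines were selected with G418 and puromycin and then cultured in medium with tetracycline-free serum. Each repeat length was 1 stable line, so that differences between the lines cannot be told apart from those of the line itself. The labels call the 3 arrays of a group biological replicates but do not say how the cultures were separated, and p-values measure only the spread between these cultures.

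In DM1 a CTG repeat in the non-coding end of the DMPK gene is expanded. The repeat RNA gathers in nuclear foci and binds the MBNL splicing factors. CELF proteins, which oppose MBNL factors on many transcripts, are described in the study as upregulated in DM1. Müller glia take up glutamate, buffer potassium and release growth factors for retinal neurons, and in culture they can take on features of matrix-producing mesenchymal cells.

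The values are log2 signals, used as deposited. Array medians lay between 4.24 and 4.32, and between 52.1% and 53.3% of the 36176 probe sets with 1 gene symbol reached a signal of 5. A probe set is called higher or lower with Dox where limma gave a log2 fold change over 0.5 in size with an unadjusted p under 0.005, and "the threshold" below means these limits. Errors of fold changes are standard errors (SE) from that fit, and adjusted p-values are its Benjamini-Hochberg values over the 36176 probe sets. The number of arrays, 3 in each group, limits the precision, and bulk signals cannot tell fewer cells of a kind from less RNA per cell.

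Several markers of Müller glia had high signals. VIM, the intermediate filament vimentin, averaged 17.15 in Dox-induced and 17.44 in non-induced cells. GLUL, glutamine synthetase, averaged 14.53 in Dox-induced and 14.81 in non-induced cells, and the glial transcription factor SOX9 averaged 13.59 in Dox-induced and 14.08 in non-induced cells. Others did not lie lower with Dox. SOX2 averaged 13.27 in Dox-induced and 13.24 in non-induced cells, EGFR 10.59 and 10.04, and the glutamate transporter SLC1A3 11.72 and 11.01. RLBP1, AQP4, KCNJ10, GFAP and S100B, which mark mature Müller glia or astrocytes, were below 5 in both groups, so that the label holds for part of the marker list only. Markers of other cells were partly below and partly above this level. Of 5 endothelial markers PECAM1, CDH5, CLDN5 and TIE1 were below 5 in both groups, and VWF averaged 5.21 in Dox-induced and 5.11 in non-induced cells. Of 8 markers of microglia and macrophages AIF1, PTPRC, CX3CR1, P2RY12 and CD14 were below 5 in both. The lysosomal protein CD68 averaged 11.19 in Dox-induced and 11.55 in non-induced cells, CSF1R 6.19 in Dox-induced and 6.44 in non-induced cells, and TYROBP 5.76 in Dox-induced and 5.92 in non-induced cells. Of these markers only SLC1A3 passed the threshold described above, as higher, and it kept that call in 1 of 6 fits that left out 1 array.

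Among the called probe sets 1 non-induced array stood out in its group. Non-induced MIO-M1-CTG(648) replicate 1 was the highest of its group in 58.1% of the probe sets called lower with Dox, against 34.9% of all probe sets. It was the lowest of its group in 47.6% of those called higher, against 37.2% of all probe sets. Without it, 277 probe sets were higher (214 of them among the 349 found with all arrays) and 229 were lower (160 of them among the 303). Without Dox-induced replicate 1 the counts were 241 and 217, and without Dox-induced replicate 2 they were 281 and 184. Leaving out other arrays thus lowered the counts too, in part further. The plots by array show non-induced replicate 1 for SCUBE3, THBS2 and ITGB4, and each call below that was lost when 1 array was left out is given with the arrays or the number of such fits concerned.

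The targeted gene was read first. DMPK had log2 signals of 9.78, 9.82 and 9.55 with Dox, against 10.32, 10.00 and 10.24 without it (log2 fold change -0.47, SE 0.18, adjusted p = 0.461). All 3 Dox-induced arrays lay below the non-induced ones, by a difference that did not pass the threshold. In MIO-M1-CTG(0) cells the DMPK change was 0.59 and did not pass either, while the difference between the lines, at -1.06, did (adjusted p = 0.166). The probe set reads the DMPK gene of the cell and may or may not read the minigene, so it checks neither the label nor the induction.

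None of the 9 CUG-binding proteins, MBNL1 to MBNL3 and CELF1 to CELF6, passed the threshold, with a median log2 fold change of 0.20 over the list and 0.01 over all genes. MBNL2, a splicing factor that binds the repeat RNA, came closest. Its signals were 14.39, 14.33 and 14.39 with Dox and 13.92, 13.88 and 13.78 without (0.51, SE 0.16, adjusted p = 0.333). MBNL1 changed by 0.27 and CELF1, which acts against MBNL on many exons, by 0.10, neither past the threshold.

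With Dox, 349 probe sets were higher and 303 lower, which is 0.965% and 0.838% of the 36176 tested and 1.8% together. An adjusted p under 0.05 at the same fold was reached by 94 higher (0.26%) and 53 lower ones (0.147%). In MIO-M1-CTG(0) cells Dox gave 132 higher (0.365%) and 139 lower probe sets (0.384%). With each array centred on its median these became 100 and 165, and the counts in MIO-M1-CTG(648) cells 356 and 267. In MIO-M1-CTG(0) cells no probe set had an adjusted p under 0.05 in limma, although 2252 had an unadjusted p under 0.05. The median log2 fold change over all probe sets was 0.01 in MIO-M1-CTG(648) cells and -0.01 in MIO-M1-CTG(0) cells.

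The median log2 fold change was 0.92 over the higher and -0.87 over the lower probe sets of MIO-M1-CTG(648) cells, and the same probe sets had medians of -0.07 and 0.19 in MIO-M1-CTG(0) cells. Protein-coding genes made up 266 of the 349 higher and 221 of the 303 lower probe sets. The 3 Dox-induced and 3 non-induced signals did not overlap in 347 of the higher and 302 of the lower ones, beside 17% of all probe sets. A call thus nearly always came with separate groups, so this separation in the called genes below adds little to the call. The median signal over the 6 arrays was 7.26 for the higher and 9.25 for the lower ones.

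Whether a change differed between the lines was tested as the interaction, the log2 fold change with Dox in MIO-M1-CTG(648) minus that in MIO-M1-CTG(0) cells. It passed the threshold for 271 probe sets in the positive direction (0.749%) and 317 in the negative (0.876%), 1.63% together. Of the 349 higher probe sets 171 passed it in the same direction, and of the 303 lower ones 172. The interaction contains the change in MIO-M1-CTG(648) cells by which these probe sets were called. These counts thus follow in part from that choice and are no separate test. Without the repeat, Dox moved 12 of the 349 higher probe sets (3.44%) and 13 of the 303 lower ones (4.29%) past the threshold in either direction, beside 0.749% of all probe sets. Of the 12, 3 passed there in the same direction and 9 in the opposite one, and all of the 13 passed in the opposite one.

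**Figure D1:**
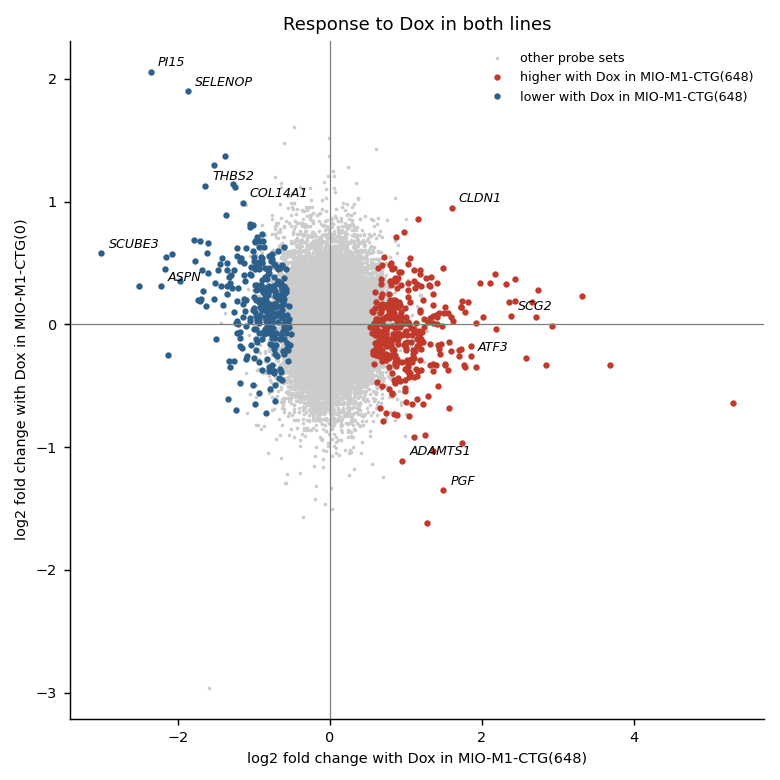
Log2 fold change with Dox in MIO-M1-CTG(648) cells (horizontal axis) against that in MIO-M1-CTG(0) cells (vertical axis), 1 point for each of 36176 probe sets, with those past the threshold in MIO-M1-CTG(648) cells in red (higher, 349) and blue (lower, 303). PI15 and SELENOP lie lower in one line and higher in the other, PGF and ADAMTS1 the other way round, and CLDN1 is higher in both.

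Several of the genes with opposite directions in the lines encode secreted proteins. PI15, a secreted protein of the cysteine-rich CAP family, had signals of 12.44, 12.45 and 12.31 with Dox, against 15.47, 14.50 and 14.32 without it in MIO-M1-CTG(648) cells (-2.36, SE 0.28, adjusted p = 0.00139). In the line without the repeat it averaged 15.41 with Dox and 13.35 without (2.06), so that both lines passed the threshold in opposite directions and the interaction reached -4.42. Without non-induced MIO-M1-CTG(648) replicate 1 the PI15 change was -2.01. SELENOP, which carries selenium between cells, changed by -1.87 in MIO-M1-CTG(648) cells and by 1.90 in MIO-M1-CTG(0) cells. Its non-induced MIO-M1-CTG(648) signals were 11.76, 10.57 and 10.16, of which replicate 1 was the highest, and all lay above the Dox-induced ones of 8.87, 9.0 and 9.02. Without that replicate SELENOP changed by -1.40. PGF, a ligand of the VEGF receptor FLT1, went the other way, at 1.49 in MIO-M1-CTG(648) cells and -1.35 in MIO-M1-CTG(0) cells. Its call was lost without non-induced replicate 1 (1.37) or Dox-induced replicate 1 (1.36). DIRAS3, a small GTPase inside the cell, also turned, at 1.27 in MIO-M1-CTG(648) cells and -1.62 in MIO-M1-CTG(0) cells, and kept its call in MIO-M1-CTG(648) cells only without non-induced replicate 1 (1.43). CLDN1, a claudin of tight junctions, was higher in both lines, by 1.60 and 0.95.

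Genes of the extracellular matrix stood among the lower ones. Of 14 small leucine-rich proteoglycans 5 were lower and 0 higher, and only 1 of the 14 had a log2 fold change above 0, beside 50.8% of all genes. Only 9 of the 14 reached a mean of 5 in a group of MIO-M1-CTG(648) cells, so the share above 0 includes dim genes. In such lists a gene stands for its brightest probe set, of which 0.986% were higher and 0.843% lower over all 33458 genes. The median over the proteoglycans was -0.48 in MIO-M1-CTG(648) cells and 0.16 in MIO-M1-CTG(0) cells, where none passed the threshold. The count of lower proteoglycans was between 4 and 6 when each of the 6 arrays was left out in turn. These proteins bind collagen fibrils and tune their thickness, and several bind growth factors.

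ASPN, asporin, which binds collagen and TGF-β, had signals of 6.99, 6.41 and 6.08 with Dox, against 8.65, 8.75 and 8.78 without (-2.23, SE 0.23, adjusted p = 0.000434). OGN, osteoglycin, had 10.27, 9.99 and 10.25 with Dox and 11.98, 12.21 and 12.23 without (-1.97, SE 0.26, adjusted p = 0.00272). OMD, osteomodulin, had 10.49, 10.05 and 10.28 with Dox and 11.94, 11.94 and 11.95 without (-1.67, SE 0.25, adjusted p = 0.00608). In these 3 genes the groups were far apart, with every Dox-induced array below every non-induced one. ECM2, a matrix protein with leucine-rich repeats, had 6.33, 6.25 and 5.64 with Dox, against 7.24, 7.25 and 7.28 without (-1.18, SE 0.25, adjusted p = 0.0672).

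These 4 genes are neighbours. In the RefSeq annotation of GRCh38.p14 OGN lies at chr9:92383268-92404699, OMD at chr9:92412380-92424471, ASPN at chr9:92456205-92482506 and ECM2 at chr9:92493547-92559106, and no other protein-coding gene starts between them. All lie within the span of CENPP, a centromere protein gene at chr9:92325468-92620529, which changed by -0.32 and did not pass the threshold. The next genes on either side, IARS1 and NOL8 before them and IPPK and BICD2 after them, changed by -0.23, 0.12, 0.10 and 0.14, none past the threshold. In MIO-M1-CTG(0) cells ASPN, OGN, OMD and ECM2 changed by 0.31, 0.35, 0.27 and -0.11, again none past it. ASPN averaged only 4.10 with Dox and 3.80 without in that line, where a fall could hardly be seen.

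**Figure D2:**
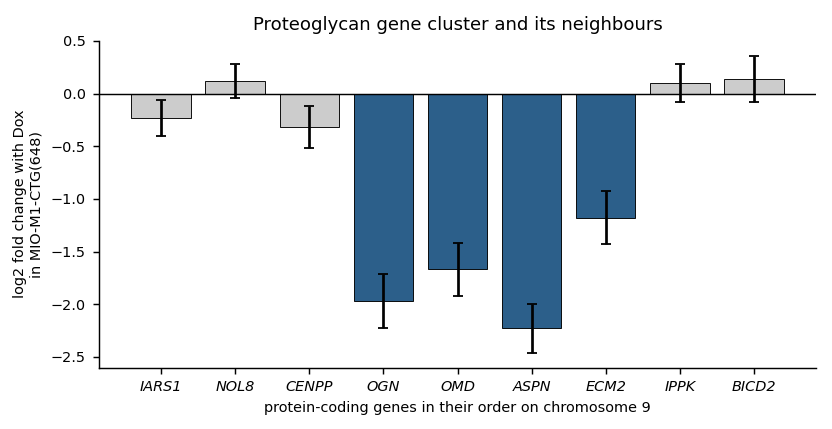
Log2 fold change with Dox in MIO-M1-CTG(648) cells (vertical axis; bars from 0, error bars of 1 SE) for 9 protein-coding genes in their order on chromosome 9 (horizontal axis), with those past the threshold in blue. The 4 adjacent genes OGN, OMD, ASPN and ECM2 lie between -2.23 and -1.18, and the 5 others between -0.32 and 0.14.

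The fifth proteoglycan, BGN, biglycan, was lower by 0.60 on the log2 scale, and lost its call without non-induced replicate 1 (-0.58), non-induced replicate 2 (-0.57) or Dox-induced replicate 3 (-0.57). DCN and LUM, decorin and lumican, had larger differences that did not pass the threshold. DCN had 5.91, 5.31 and 5.88 with Dox and 7.79, 7.01 and 6.45 without (-1.38, SE 0.43, adjusted p = 0.313). LUM had 6.32, 6.56 and 6.18 with Dox and 7.96, 7.22 and 7.13 without (-1.08, SE 0.41, adjusted p = 0.443). In both, the Dox-induced arrays lay below all non-induced ones, and non-induced replicate 1 was the highest.

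Of 41 collagen chains 5 were lower and 0 higher, with a median of -0.19. Without the repeat 3 were higher and 0 lower, with a median of 0.11, and the interaction was past the threshold for 7, all in the negative direction. The count of 5 became 3 without non-induced replicate 1 or without Dox-induced replicate 2. COL14A1, a chain of fibril-associated collagen, had 12.50, 12.38 and 12.38 with Dox, against 13.87, 13.57 and 13.28 without (-1.15, SE 0.21, adjusted p = 0.0267). COL11A1, which nucleates fibrils, had 11.63, 11.83 and 11.70 with Dox and 13.11, 12.58 and 12.62 without (-1.05, SE 0.23, adjusted p = 0.0765). Both were higher with Dox in MIO-M1-CTG(0) cells, by 0.99 and 0.82, past the threshold. The Dox-induced arrays of that line had 12.56, 12.59 and 13.17 for COL14A1 and 13.93, 13.86 and 14.64 for COL11A1. Its replicate 3 was thus the highest in both.

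COL1A1, a chain of the main fibrillar collagen, had 13.20, 12.86 and 13.18 with Dox and 14.49, 13.87 and 13.87 without (-1.0, SE 0.23, adjusted p = 0.102). Its partner chain COL1A2 changed by -0.27 and did not pass the threshold, at signals of 17.78, 17.77 and 17.88 with Dox and 18.25, 18.07 and 17.91 without. COL10A1 fell by 1.52 on the log2 scale, and by 1.03 without non-induced replicate 1, where its call was lost, as it was without Dox-induced replicate 2 (-1.29). COL4A1, a basement membrane chain, was lower by 0.63 and kept its call only without non-induced replicate 2 (-0.72), the smallest value being -0.48 without non-induced replicate 3. None of the 12 laminins and other basement membrane proteins passed the threshold.

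Among 26 enzymes of collagen processing 2 were lower. LOXL3, a lysyl oxidase that cross-links collagen and elastin, had 12.14, 11.79 and 12.09 with Dox, against 13.59, 13.72 and 13.80 without (-1.70, SE 0.21, adjusted p = 0.00155), with groups far apart. The other, PCOLCE2, changed by -0.67 and kept its call only without non-induced replicate 3 (-0.78). LOX itself had 15.34, 15.25 and 15.37 with Dox and 15.52, 15.81 and 15.71 without, a change of -0.36 that did not pass.

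Of 23 elastic fibre and microfibril genes 3 were lower and 1 higher, and the lower count became 1 without any 1 of the 3 Dox-induced arrays. MFAP4, a microfibril glycoprotein, had 6.08, 5.89 and 5.41 with Dox, against 7.37, 7.63 and 7.72 without (-1.78, SE 0.21, adjusted p = 0.00112). Its signals in MIO-M1-CTG(0) cells were far higher, averaging 13.03 with Dox and 12.51 without, and did not pass the threshold. HMCN1, hemicentin, changed by -1.25, but by -0.80 without non-induced replicate 1, and kept its call only without non-induced replicate 2 (-1.43) or 3 (-1.53). FBN1, fibrillin, and ELN, elastin, did not pass, at -0.28 and 0.17.

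Of 37 matricellular and other glycoproteins 3 were lower and 0 higher. SCUBE3, a secreted EGF-repeat protein, had 4.41, 4.69 and 4.82 with Dox, against 8.88, 6.98 and 7.08 without, and non-induced replicate 1 was the highest by far. Its fold change was -3.01 with all arrays and -2.39 without that replicate. THBS2, thrombospondin 2, had 10.73, 10.77 and 10.68 with Dox and 13.01, 12.09 and 12.01 without (-1.64, SE 0.37, adjusted p = 0.092), and changed by -1.32 without the same replicate. THBS1, its closest relative, had 18.28, 18.30 and 18.22 with Dox and 18.25, 18.39 and 18.36 without (-0.07), and its groups overlapped. FN1, fibronectin, changed by -0.03 and POSTN, periostin, by -0.49, neither past the threshold. POSTN was higher by 0.94 in MIO-M1-CTG(0) cells, and the difference between the lines was -1.43 (adjusted p = 0.0462).

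**Figure D3:**
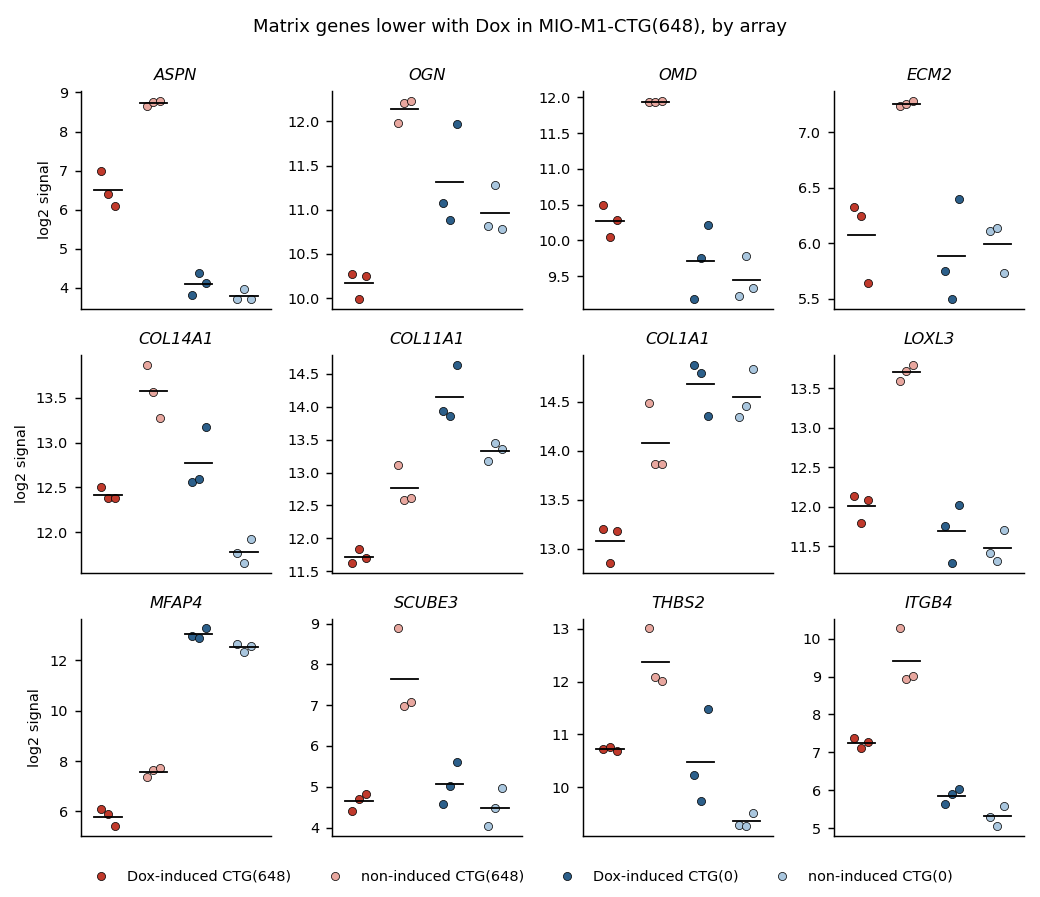
Log2 signals (vertical axes) of 12 matrix genes on all 12 arrays, 1 point for each array and a line at the mean of each group, in the order Dox-induced and non-induced MIO-M1-CTG(648), then Dox-induced and non-induced MIO-M1-CTG(0). In MIO-M1-CTG(648) cells every Dox-induced array lies below every non-induced one in each gene, and for SCUBE3, at 8.88, and THBS2, at 13.01, the first non-induced array lies above the other two.

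Of 26 integrin subunits 2 were lower and 1 was higher. ITGB4, the β subunit of the laminin receptor of hemidesmosomes, had 7.38, 7.11 and 7.27 with Dox, against 10.27, 8.94 and 9.02 without (-2.16, SE 0.30, adjusted p = 0.00342). Without non-induced replicate 1, its highest array, the change was -1.73. In MIO-M1-CTG(0) cells ITGB4 was dimmer, averaging 5.86 with Dox and 5.31 without. ITGA11, which pairs with ITGB1 as a collagen receptor, had 13.01, 12.83 and 13 with Dox and 14.42, 13.78 and 13.81 without (-1.06, SE 0.24, adjusted p = 0.092). ITGB1 changed by -0.37 and did not pass. Of 59 matrix proteases and their inhibitors 1 was higher and 1 lower. The higher one, ADAMTS1, which cleaves proteoglycans, changed by 0.95 in MIO-M1-CTG(648) cells, a call lost without non-induced replicate 3 (0.92), Dox-induced replicate 1 (0.87) or Dox-induced replicate 2 (0.86), and was lower by 1.11 in MIO-M1-CTG(0) cells. It was dim in MIO-M1-CTG(648) cells, averaging 5.95 with Dox and 5.0 without, against 10.07 with Dox and 11.18 without in MIO-M1-CTG(0) cells.

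Some markers of fibroblasts and mural cells were lower as well. Of 8 such markers 3 were called lower (PDGFRA, PDGFRB and ACTA2), and CSPG4 was below 5 in both groups. RGS5, CSPG4 and THY1 changed by -0.03, 0.14 and -0.29, none past the threshold. The summed linear signal of the 8 lay between 52318 and 59273 on the Dox-induced arrays, against 63838 to 74910 on the non-induced ones, and THY1 made up 89.3% of it over these 6 arrays. Without THY1 the sum was 4010 to 4961 on the Dox-induced arrays, against 8459 to 9488 on the non-induced ones. The sum of 11 Müller glia markers did not overlap either, at 189206 to 207703 on the Dox-induced arrays, against 231417 to 245184 on the non-induced ones. VIM made up 74.6% of it over these 6 arrays. Without VIM the sum was 49188 to 52908 on the Dox-induced arrays, against 58466 to 60176 on the non-induced ones. The median log2 fold change of the 11 was -0.12, with 1 of the 11 higher and 0 lower. The part of these markers in the matrix result was not tested.

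In the wider list of PDGF and mural cell genes 3 of 29 were lower and 0 higher, in every fit that left out 1 array. PDGFRA, a receptor of PDGF found on mesenchymal and glial precursor cells, had 10.77, 10.60 and 10.94 with Dox and 12.07, 11.78 and 11.60 without (-1.05, adjusted p = 0.0262). PDGFRB, its partner on mural cells, had 9.51, 9.19 and 9.63 with Dox and 10.47, 10.31 and 10.25 without (-0.90, adjusted p = 0.0467). FAP, a protease of activated fibroblasts, had 11.97, 11.81 and 11.84 with Dox and 13, 12.66 and 12.71 without (-0.92, SE 0.20). The ligand PDGFA changed by -0.18, and its groups overlapped.

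Of 31 contractile genes 2 were lower, again in every such fit. MYLK, myosin light chain kinase, had 12.33, 12.17 and 12.56 with Dox, against 14.36, 13.81 and 13.72 without (-1.61, SE 0.21, adjusted p = 0.00272). ACTA2, smooth muscle actin, had 11.06, 10.64 and 10.87 with Dox and 11.62, 11.64 and 11.96 without (-0.88, adjusted p = 0.0436). The smooth muscle genes TAGLN and CNN1 did not follow, at 0.10 and -0.19 with overlapping groups.

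Secreted regulators of TGF-β and BMP signalling moved in both directions. Of 61 genes of the pathway 2 were higher and 5 lower, and the lower count became 3 without any 1 of the 3 non-induced arrays or without Dox-induced replicate 2. BAMBI, a decoy receptor that blocks TGF-β and BMP signals, had 9.62, 9.44 and 9.52 with Dox, against 8.28, 8.38 and 8.37 without (1.18, SE 0.24, adjusted p = 0.0537). NOG, noggin, an inhibitor that binds BMPs, had 6.02, 5.72 and 6.2 with Dox and 5.12, 5.30 and 5.00 without (0.84, SE 0.19). The groups were apart in both genes.

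The ligand TGFB1 had 12.59, 12.32 and 12.30 with Dox and 13.39, 13.09 and 13.27 without (-0.85, SE 0.17, adjusted p = 0.06). The ligand BMP6 had 6.27, 6.62 and 6.14 with Dox and 7.34, 7.31 and 7.2 without (-0.94, SE 0.18, adjusted p = 0.0381). CHRDL1, a further BMP antagonist, was lower by 0.73. Inhibitors thus stood on both sides of the list. SMAD7, the intracellular inhibitor that TGF-β induces, changed by 0.37 without passing the threshold.

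In the Wnt pathway 1 of 61 genes was higher and 4 were lower, and the lower count became 2 without non-induced replicate 1, Dox-induced replicate 2 or Dox-induced replicate 3. SFRP2, a secreted protein that binds Wnt ligands, had 11.35, 11.39 and 11.29 with Dox, against 12.33, 12.56 and 12.71 without (-1.19, SE 0.16, adjusted p = 0.00342). SFRP4, of the same family, had 6.74, 6.54 and 6.78 with Dox and 8.12, 7.92 and 7.81 without (-1.26, SE 0.30, adjusted p = 0.115). FRZB, a further member, was lower by 1.0, a call lost without non-induced replicate 1 (-0.89), Dox-induced replicate 2 (-0.97) or Dox-induced replicate 3 (-0.98). AXIN2, a transcript that Wnt signalling induces, changed by 0.38 with overlapping groups. The inhibitor DKK1 was higher by 0.66 in MIO-M1-CTG(648) cells and lower by 0.68 in MIO-M1-CTG(0) cells, but its call in MIO-M1-CTG(648) cells was lost in each of the 6 fits that left out 1 array, at 0.59 to 0.72.

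Among 49 genes of the FGF family and its feedback 4 were higher and 2 lower, and both counts were the same whichever array was left out. FGF2, a factor that protects photoreceptors, had 13.09, 12.73 and 13.13 with Dox and 11.66, 12.05 and 11.95 without (1.10, SE 0.23, adjusted p = 0.0617). FGF7, which acts on epithelia, had 10.48, 10.63 and 10.34 with Dox, against 12.37, 12.21 and 12.24 without (-1.79, SE 0.30, adjusted p = 0.0155). The groups were apart in both. The receptor FGFR2, which FGF7 uses, was lower by 0.93, and the decoy receptor FGFRL1 was higher by 1.07. DUSP4, a phosphatase that switches off MAP kinases, had 9.17, 9.08 and 9.13 with Dox and 8.29, 7.91 and 8.23 without (0.98, SE 0.17, adjusted p = 0.0187). SPRY2 and DUSP6, further feedback genes, changed by 0.01 and 0.30 and did not pass.

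Other growth factors and guidance genes had few calls. Of 32 VEGF, angiopoietin, apelin and endothelin genes 1 was higher and 2 were lower. APLN, the peptide apelin, had 8.87, 8.4 and 8.44 with Dox and 9.93, 9.74 and 9.68 without (-1.21, SE 0.26). PLXDC1, a receptor first known from tumour endothelium, had 6.87, 6.96 and 7.27 with Dox, against 8.60, 8.33 and 8.53 without (-1.45, SE 0.20, adjusted p = 0.00342). VEGFA changed by 0.41 and did not pass. NRG2, a ligand of ERBB receptors, was higher by 1.02, and LRIG3, a relative of LRIG1, which restrains such receptors, was lower by 0.95.

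Among 66 semaphorins, ephrins, netrins, Slits and their receptors 3 were higher and 2 lower. The axon guidance ligand SLIT2 had 10.98, 11.03 and 11.48 with Dox and 10.23, 10.41 and 10.17 without (0.89, SE 0.18, adjusted p = 0.0478). The ephrin receptor EPHA2 was higher by 0.92 and the semaphorin receptor PLXNB3 lower by 1.10. SEMA3E was lower by 1.38 in MIO-M1-CTG(648), but by 0.87 without non-induced replicate 1, and its call was lost without Dox-induced replicate 1 (-1.31) or 3 (-1.33). With 0 repeats SEMA3E was higher by 1.37, and the interaction was -2.75 (adjusted p = 0.0367). GHR, the growth hormone receptor, was lower by 0.93. Of the Notch list 2 of 34 were higher, the ligands JAG1 (0.85) and DLL4 (0.69). JAG1 lost its call without non-induced replicate 3 (0.79) or Dox-induced replicate 1 (0.79), and DLL4 in 4 of the 6 fits, over which its values were 0.64 to 0.77.

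**Figure D4:**
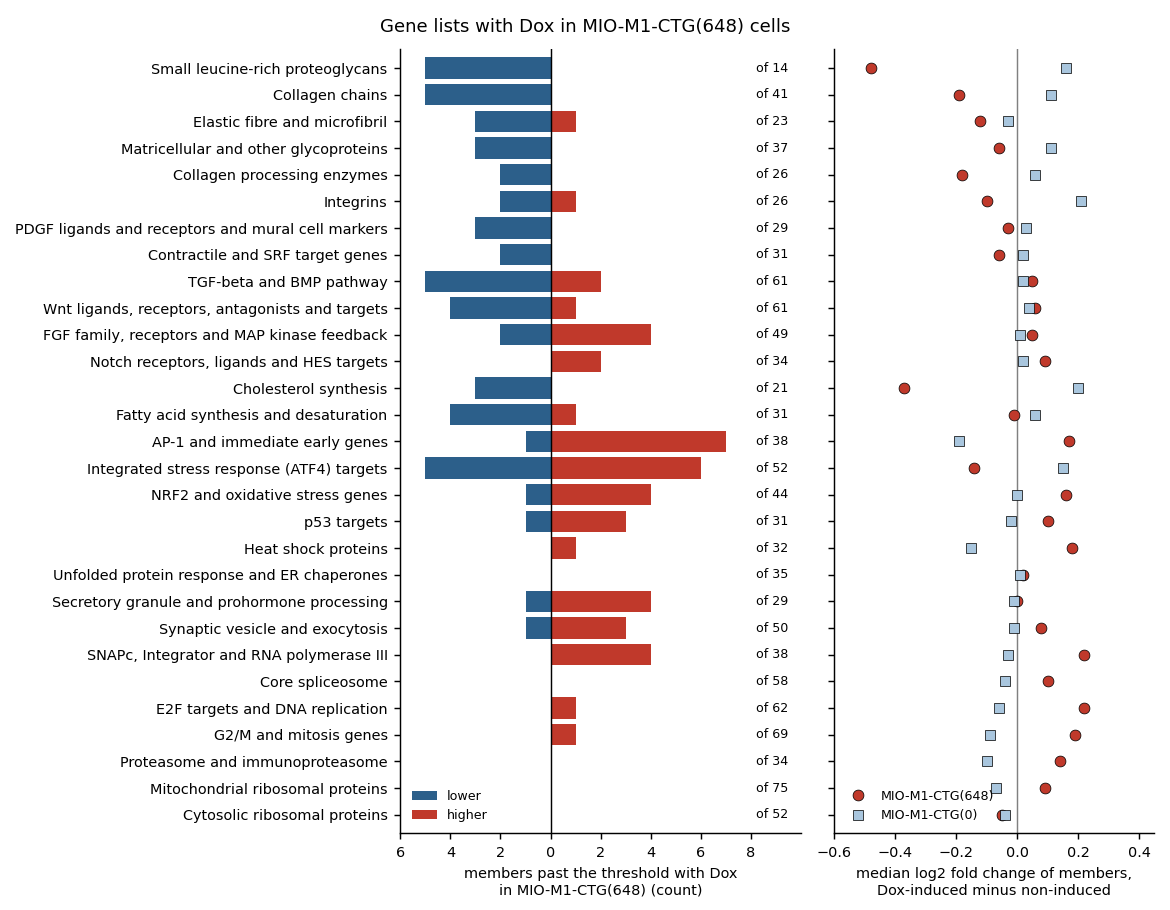
For 29 gene lists (rows), the left panel gives how many members were higher (red) and lower (blue) with Dox in MIO-M1-CTG(648) cells, of the number measured. The right panel gives the median log2 fold change of the members in MIO-M1-CTG(648) (circles) and MIO-M1-CTG(0) cells (squares), where the proteoglycans lie at -0.48 and 0.16 and cholesterol synthesis at -0.37 and 0.20.

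Of 38 genes of the immediate early response and AP-1 7 were higher and 1 lower, the higher count lay between 6 and 8 when each array was left out in turn, and in MIO-M1-CTG(0) cells 0 were higher and 1 lower. The interaction passed the threshold for 7 in the positive and 1 in the negative direction. AP-1 is a pair of FOS, JUN or ATF family proteins that binds DNA soon after a stimulus. The median over the list was 0.17, and 21 of the 38 were above 0.

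ATF3, a transcription factor that many stresses induce, had 9.41, 9.14 and 9.08 with Dox, against 7.58, 7.27 and 7.23 without (1.85, adjusted p = 0.00342). GADD45A, a growth arrest gene, had 13.50, 13.53 and 13.65 with Dox and 11.90, 12.16 and 12.09 without (1.51, SE 0.17, adjusted p = 0.00093). FOSL1, a FOS relative, had 13.48, 13.59 and 13.42 with Dox and 11.72, 12.71 and 12.83 without (1.08, SE 0.26, adjusted p = 0.124). The groups were apart in all 3, and non-induced replicate 1 was the lowest array for FOSL1, which changed by 0.73 without it. CSRNP1, a nuclear protein of the same early response, was higher by 1.08. BATF was higher by 0.82, a call lost without non-induced replicate 2 (0.63) or Dox-induced replicate 3 (0.70). KLF10 was higher by 0.90, a call lost without non-induced replicate 1 (0.68).

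FOS, JUN and EGR1, the best known genes of the list, did not pass the threshold. FOS had 4.97, 5.01 and 5.12 with Dox and 6.01, 5.29 and 5.84 without (-0.68), JUN changed by 0.17, and EGR1 had 8.25, 8.41 and 8.00 with Dox and 8.54, 8.92 and 8.75 without (-0.52). JUND was lower by 0.82, a call kept only without Dox-induced replicate 1 (-1.08), and by 0.62 without Dox-induced replicate 3.

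The integrated stress response, in which a block of translation lets ATF4 drive amino acid and stress genes, was split. Of 52 targets 6 were higher and 5 lower, with a median of -0.14, beside 0.15 in MIO-M1-CTG(0) cells, where none passed. The higher count lay between 5 and 6 and the lower between 2 and 4 when 1 array was left out, with 2 lower without non-induced replicate 1 or Dox-induced replicate 2. CHAC1, which degrades glutathione, had 12.92, 12.72 and 12.66 with Dox, against 11.34, 11.54 and 11.49 without (1.31, SE 0.19, adjusted p = 0.00608). PPP1R15A, the phosphatase subunit that ends the block of translation, had 12.76, 12.55 and 12.59 with Dox and 11.35, 11.50 and 11.63 without (1.14, SE 0.17, adjusted p = 0.00761). The hormone FGF21 was higher by 0.69 at signals of 5.25, 5.27 and 5.37 with Dox and 4.45, 4.72 and 4.64 without, and CTH, an enzyme that makes cysteine, by 0.92.

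Lower members of the same list included enzymes of amino acid synthesis. CBS, the enzyme just before CTH on the way from homocysteine to cysteine, had 11.49, 11.47 and 11.57 with Dox and 12.70, 12.54 and 12.62 without (-1.11, SE 0.19, adjusted p = 0.0162), and both of its probe sets were lower. PSAT1, of serine synthesis, had 15.55, 15.47 and 15.35 with Dox and 16.15, 16.13 and 16.25 without (-0.72, SE 0.16, adjusted p = 0.0969). CBS and PSAT1 in MIO-M1-CTG(0) cells changed by 0.62 and 0.48, not past the threshold, and the interaction was -1.73 and -1.20 (adjusted p = 0.0174 and 0.0477). The transcript of ATF4 itself was lower by 0.62, a call kept only without Dox-induced replicate 1 (-0.69), and ASNS and DDIT3, both ATF4 targets, changed by 0.42 and 0.40 and did not pass. None of 35 genes of the unfolded protein response passed, with a median of 0.02, and HSPA5, its main chaperone, changed by 0.02.

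The promoters of these genes were searched for the letters TGATGNAAN, the core of the element that C/EBP and ATF proteins bind together, on both strands of the 250 bases before each start. It overlaps no other motif searched. Counted by window, the letters were found in 1100 of 35116 windows (3.13%). Counted by gene, they were found in 11 of the 42 list members with a window. A gene may have several windows, so the share of windows is no background for the share of genes. The letters stood before 3 of the 6 higher genes, 0 of the 5 lower and 8 of the other 41, where genes with no window count as without. The median log2 fold change was 0.20 over the 11 members with the letters and -0.20 over the rest of the list. A match is a description of the sequence, not a site of binding. The 3 windows, from RefSeq on GRCh38.p14, are shown because they belong to higher genes that hold the letters, with the match in capitals, 5′ to 3′ on the plus strand of ATF3 (chr1:212565157-212565406), CHAC1 (chr15:40953221-40953470) and FGF21 (chr19:48755274-48755523).
ATF3: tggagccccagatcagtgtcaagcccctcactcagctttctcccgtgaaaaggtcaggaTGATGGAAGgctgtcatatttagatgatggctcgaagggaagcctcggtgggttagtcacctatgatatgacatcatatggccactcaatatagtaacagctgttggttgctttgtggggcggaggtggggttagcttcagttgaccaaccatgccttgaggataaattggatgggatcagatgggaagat
CHAC1: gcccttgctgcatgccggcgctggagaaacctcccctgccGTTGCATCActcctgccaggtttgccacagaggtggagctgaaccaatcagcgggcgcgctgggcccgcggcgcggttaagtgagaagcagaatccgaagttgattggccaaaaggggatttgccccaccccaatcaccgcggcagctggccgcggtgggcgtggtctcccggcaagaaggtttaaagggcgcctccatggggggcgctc
FGF21: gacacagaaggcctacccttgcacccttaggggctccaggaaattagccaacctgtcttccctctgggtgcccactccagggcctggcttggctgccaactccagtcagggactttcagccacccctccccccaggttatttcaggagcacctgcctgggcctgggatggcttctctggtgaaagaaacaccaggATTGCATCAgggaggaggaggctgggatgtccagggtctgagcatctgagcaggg
The match begins 191 bases before the start of ATF3, 210 before that of CHAC1 and 55 before that of FGF21, and in the last of these it lies on the other strand, as it does in CHAC1.

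Of 44 genes of the oxidative stress response driven by NRF2 4 were higher and 1 lower, with a median of 0.16. OSGIN1, a growth inhibitor that oxidative stress induces, had 8.86, 8.80 and 8.98 with Dox, against 7.02, 7.06 and 7 without (1.85, SE 0.18, adjusted p = 0.000225), with little spread in either group. HMOX1, which breaks down heme, had 7.55, 6.89 and 7.37 with Dox and 6.24, 5.58 and 6.25 without (1.25, SE 0.29, adjusted p = 0.103). AKR1B10, an aldehyde reductase, was higher by 1.36, a call lost without Dox-induced replicate 3 (1.18). NQO1 and GCLM, the usual readouts of NRF2, changed by 0.22 and 0.23 and did not pass.

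Of 31 p53 targets 3 were higher and 1 lower, GADD45A being 1 of the higher ones. PMAIP1, the BH3-only protein NOXA, had 10.06, 9.92 and 9.99 with Dox and 8.83, 9.03 and 9.47 without (0.88, SE 0.19, adjusted p = 0.0823). CDKN1A and MDM2, its standard targets, changed by -0.09 and -0.30, not past the threshold. Of 32 heat shock genes 1 was higher, HSPA4L, a chaperone of the HSP110 group, at 13.03, 13.29 and 13.18 with Dox and 12.05, 12.19 and 12.42 without (0.95, SE 0.17, adjusted p = 0.0233). Of 9 metallothioneins, which bind zinc and copper, none passed, although 8 had a log2 fold change below 0. MT1F had 14.44, 14.03 and 14.07 with Dox and 14.51, 15 and 15.15 without (-0.71, adjusted p = 0.374). MT1E, MT1G, MT1H, MT1M, MT1X, MT2A and MT4 lay between -0.56 and -0.25, and MT3 at 0.02.

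Of 21 cholesterol synthesis genes 3 were lower and 0 higher, only 3 had a log2 fold change above 0, and the median was -0.37, against 0.20 in MIO-M1-CTG(0) cells. The interaction was past the threshold for 4, all negative. The count of 3 became 1 without Dox-induced replicate 2. INSIG1, which holds the sterol sensor in the endoplasmic reticulum and is itself a target of the SREBP factors, had 12.87, 12.79 and 12.84 with Dox and 13.92, 13.93 and 13.66 without (-1.0, SE 0.19, adjusted p = 0.035). DHCR7, the last enzyme of the path, was lower by 0.75, and lost its call without non-induced replicate 1 (-0.71), non-induced replicate 2 (-0.73) or Dox-induced replicate 2 (-0.72). LSS was lower by 0.68 and kept its call only without non-induced replicate 2 (-0.79) or Dox-induced replicate 1 (-0.78), its smallest value being -0.57 without Dox-induced replicate 2. HMGCS1 and SQLE changed by -0.49 and -0.61, neither past the threshold.

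Of 31 genes of fatty acid synthesis and desaturation 4 were lower and 1 higher, and the lower count became 2 without Dox-induced replicate 2. FADS2, a desaturase of polyunsaturated fatty acids, had 16.54, 16.33 and 16.33 with Dox, against 17.43, 17.25 and 17.27 without (-0.92, SE 0.19, adjusted p = 0.0545). SCD, which desaturates stearate, had 14.13, 14.23 and 14.53 with Dox and 16.23, 15.41 and 15.32 without (-1.36, SE 0.27, adjusted p = 0.0515), and its processed pseudogene SCDP1, which near-identical probes may not tell apart, was lower by 1.71. SREBF1, the factor that drives these genes, had 9.95, 9.62 and 9.94 with Dox and 11.72, 10.54 and 10.64 without (-1.13). In SREBF1 and SCD non-induced replicate 1 was the highest array, without which the changes were -0.75 and -1.07, and SREBF1 lost its call without Dox-induced replicate 2 (-1.02). FASN, fatty acid synthase, changed by -0.66 and did not pass. PLA2G4C, a phospholipase A2 that frees fatty acids from membranes, was higher, at 7.40, 6.77 and 7.11 with Dox and 5.02, 5.22 and 5.00 without, as 1 of 40 genes of its list. PTGS2, the cyclooxygenase COX-2, changed by 0.32 and did not pass.

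**Figure D5:**
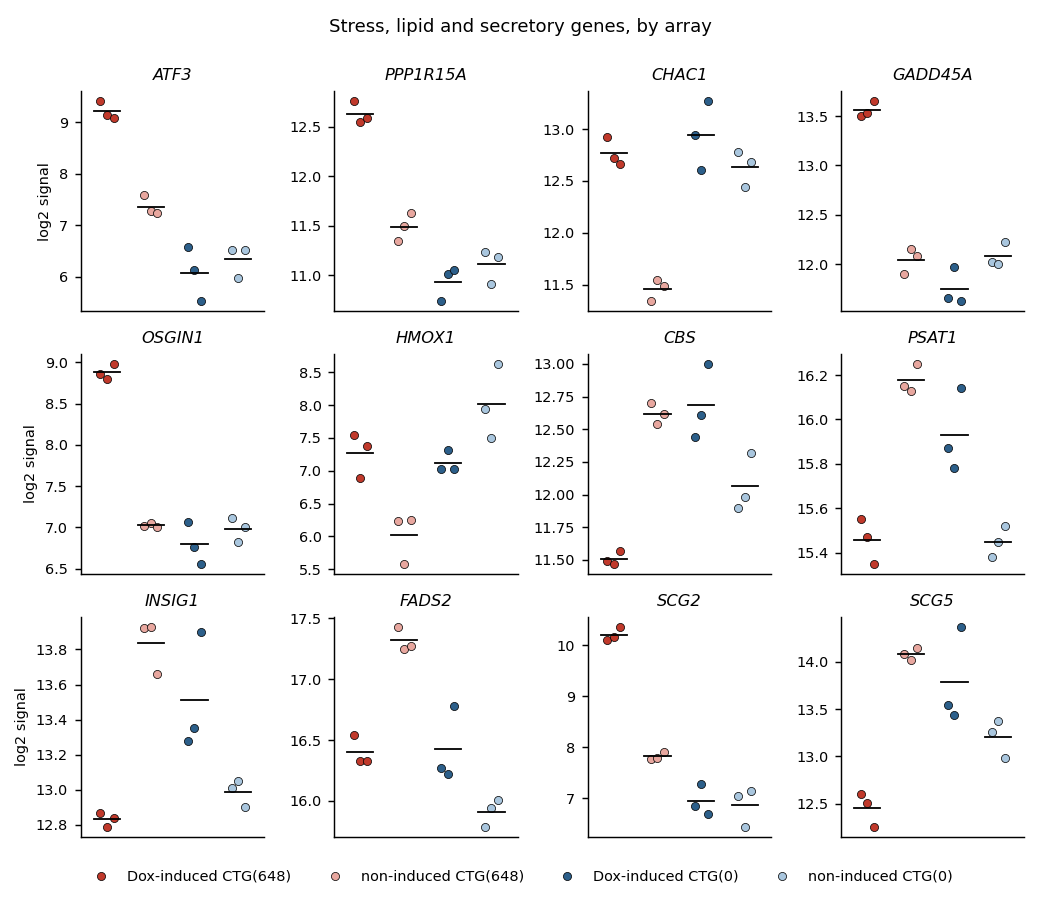
Log2 signals (vertical axes) of 12 stress, lipid and secretory genes on all 12 arrays, 1 point for each array and a line at the mean of each group, in the order Dox-induced and non-induced MIO-M1-CTG(648), then Dox-induced and non-induced MIO-M1-CTG(0). In MIO-M1-CTG(648) cells the Dox-induced arrays lie above all non-induced ones for ATF3, PPP1R15A, CHAC1, GADD45A, OSGIN1, HMOX1 and SCG2, and below them for CBS, PSAT1, INSIG1, FADS2 and SCG5.

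Of 29 genes of secretory granules 4 were higher and 1 lower. The higher count became 1 without non-induced replicate 1 or Dox-induced replicate 1, and 2 without non-induced replicate 2 or 3. SCG2, a granin that neuroendocrine cells store and release, had 10.10, 10.15 and 10.36 with Dox, against 7.77, 7.80 and 7.91 without (2.38, adjusted p = 0.000162). SCG5, the chaperone 7B2 of a prohormone convertase, had 12.60, 12.51 and 12.26 with Dox and 14.08, 14.02 and 14.14 without on its brightest probe set (-1.62, SE 0.23, adjusted p = 0.00492). Of the 10 SCG5 probe sets 8 were lower, by between 1.32 and 2.52 on the log2 scale, and none higher. The remaining higher members, CHGB (1.04), SCG3 (0.76) and VIP (1.0), each kept the call in 2 of the 6 fits, with lowest values of 0.75, 0.64 and 0.79. All of them lost it without non-induced replicate 1 (1.02 for CHGB, 0.68 for SCG3 and 1.04 for VIP). CHGA, the best known granin, changed by 0.17 at signals below 5.

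Of 50 genes of synaptic vesicles and exocytosis 3 were higher and 1 lower, in every fit that left out 1 array. RAB3B, a GTPase of regulated secretion, had 10.63, 10.59 and 10.83 with Dox and 9.14, 9.75 and 9.55 without (1.20, SE 0.21, adjusted p = 0.0215). SYTL2, a RAB27 effector, had 11.90, 12.26 and 12.09 with Dox and 11.06, 10.98 and 10.87 without (1.11, SE 0.17, adjusted p = 0.00957), and SYTL5, of the same family, had 7.09, 6.67 and 6.80 with Dox and 5.49, 5.42 and 5.57 without (1.36, SE 0.24, adjusted p = 0.0191). The groups were apart in all 3. SV2A, a vesicle glycoprotein, was lower by 0.93, and SNAP25, of the fusion machinery, changed by 0.54 and did not pass.

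Of 30 Müller glia genes 1 was higher and 1 lower. FABP7, the brain fatty acid binding protein of radial glia, had 10.09, 10.32 and 9.97 with Dox, against 11.73, 11.29 and 11.30 without (-1.31, SE 0.19, adjusted p = 0.00579). SLC1A3, the glial glutamate transporter, had 11.81, 11.67 and 11.67 with Dox and 11.18, 10.91 and 10.94 without (0.71, SE 0.19, adjusted p = 0.189). The SLC1A3 call was kept only without non-induced replicate 1 (0.79), the other values being 0.66 to 0.73. Of 24 eye field and progenitor factors 2 were higher and 1 lower. DLX2 had 7.56, 7.39 and 7.96 with Dox and 6.79, 6.37 and 6.65 without (1.03, SE 0.22), EYA1 was lower by 0.81, and its relative EYA2 was higher by 0.69, a call lost without non-induced replicate 2 (0.62). PAX6 changed by 0.26 with overlapping groups.

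At the cell surface TSPAN18, a tetraspanin linked to calcium entry, had 8.24, 7.95 and 7.63 with Dox, against 10.08, 10.22 and 9.92 without (-2.13, SE 0.25, adjusted p = 0.0011), and in MIO-M1-CTG(0) cells it changed by -0.25, not past the threshold. TSPAN2 had 7.68, 7.12 and 6.85 with Dox and 5.61, 5.40 and 6.12 without (1.51, SE 0.31, adjusted p = 0.0629). Of 33 tetraspanins 2 were higher and 1 lower, and CD9 and CD81 changed by -0.44 and -0.20 and did not pass. The junction proteins CLDN1 and JAM2 were higher, JAM2 at 7.30, 7.41 and 7.50 with Dox and 6.02, 6.23 and 6.72 without (1.08, SE 0.21, adjusted p = 0.0409), as 2 of 38 genes of the list. CDH8 was higher by 0.93 among 47 cadherins, and KIF26B, an unusual kinesin, was lower among 31 kinesins, by 1.33 with all arrays and by 0.96 without non-induced replicate 1.

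Channels and the clock gave single genes. Of 85 potassium channels 1 was higher, KCNT2, a channel opened by sodium, at 6.88, 7.53 and 7.32 with Dox and 6.25, 5.64 and 5.77 without (1.36, SE 0.25, adjusted p = 0.0313). None of 46 sodium and calcium channels passed, and KCNJ10, the main potassium channel of Müller glia, was near 3 in both groups. NR1D1, the clock repressor REV-ERBα, had 13.89, 13.57 and 13.48 with Dox, against 11.80, 11.69 and 12.14 without (1.77, SE 0.19, adjusted p = 0.000593). Its relative NR1D2 and the activator BMAL1 changed by 0.07 and 0.32, with overlapping groups.

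Of 38 genes of SNAPc, Integrator and RNA polymerase III 4 were higher and 0 lower, with a median of 0.22, and the count was 3 without non-induced replicate 1 or 2 and 2 without any other single array. SNAPC1, a subunit of the complex that starts small nuclear RNA genes, had 11.92, 11.86 and 11.84 with Dox and 10.21, 10.21 and 10.10 without (1.70, adjusted p = 0.000359). BRF2, a factor of RNA polymerase III at such genes, had 9.57, 9.21 and 9.20 with Dox and 8.01, 8.42 and 8.51 without (1.01, SE 0.23, adjusted p = 0.0986). INTS6 and INTS12, both at 0.59, kept the call in 1 of 6 fits each, with lowest values of 0.52 and 0.47. None of 58 core spliceosome genes passed, with a median of 0.10, and of 47 SR proteins, hnRNPs and CLK kinases 1 was higher and 1 lower.

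Several large lists had few or no calls. Of 69 G2/M and mitosis genes 65 had a log2 fold change above 0, with a median of 0.19 and 1 gene called higher. Of 62 E2F targets 55 were above 0, with a median of 0.22 and 1 called. Of 34 proteasome genes 33 were above 0, with a median of 0.14 and none called. In MIO-M1-CTG(0) cells the numbers above 0 were 16, 20 and 6, with medians of -0.09, -0.06 and -0.10. The members of such lists vary together, so these shares are a description of the 12 arrays. Of 75 mitochondrial ribosomal proteins, 71 respiratory chain subunits, 52 cytosolic ribosomal proteins and 58 replication-dependent histones none passed, with medians of 0.09, 0.00, -0.05 and 0.04.

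MicroRNA genes were read through probe sets for the gene or its precursor, not for the mature RNA. Of 1506 such genes 14 were higher (0.93%) and 6 lower (0.398%), beside 0.965% and 0.838% of all probe sets, so that neither share lay above that of all probe sets. The median signal over the 1506 was 4.20, and 13 of the 20 called reached a mean of 5 in a group. An adjusted p under 0.05 was reached by 4. The genes below are given as single genes. MIR4288 had 6.77, 7.34 and 7.97 with Dox, against 5.23, 4.77 and 4.78 without (2.43, SE 0.32, adjusted p = 0.00274). MIR298 had 5.55, 5.69 and 5.78 with Dox and 4.14, 4.76 and 3.89 without (1.41, SE 0.23, adjusted p = 0.0138). Every Dox-induced array lay above the non-induced ones in both. MIR4262 was higher by 0.99 and MIR103B1 by 0.94, MIR103B1 at signals near 4 with Dox and near 3 without.

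Among the lower microRNA genes MIR635 was the brightest, at 8.16, 7.95 and 8.02 with Dox, against 9.09, 8.66 and 8.82 without (-0.81, SE 0.18, adjusted p = 0.0823). MIR1261 was lower by 1.18 (adjusted p = 0.0404), MIR548X by 1.12 (by 0.85 without non-induced replicate 1) and MIR448 by 0.76, the last at signals below 4 on every array. The mature forms of 7 of these genes are shown, with the seed (bases 2 to 8), which pairs with target transcripts, in capitals, from RefSeq (GRCh38.p14), first for the higher genes and then for the lower.
hsa-miR-298: aGCAGAAGcagggagguucuccca
hsa-miR-4262: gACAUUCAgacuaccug
hsa-miR-103b: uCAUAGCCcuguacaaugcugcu
hsa-miR-1261: aUGGAUAAggcuuuggcuu
hsa-miR-548x-3p: uAAAAACUgcaauuacuuuc
hsa-miR-548x-5p: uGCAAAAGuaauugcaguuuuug
hsa-miR-635: aCUUGGGCacugaaacaaugucc
hsa-miR-448: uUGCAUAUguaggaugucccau
The 8 sequences have 8 different seeds, so that no 2 of them fall into 1 seed family. MIR298 lies at chr20:58818280-58818303, MIR635 at chr17:68424511-68424533 and MIR1261 at chr11:90869180-90869198 in their mature parts, all on the minus strand.

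Inflammatory lists are given for scale. Of 26 NF-κB pathway genes 9 were higher and 0 lower, of 52 interferon-stimulated genes 13 were higher and 2 lower, and of 24 chemokines 7 were higher and 0 lower. RELB, the NF-κB subunit of the non-canonical path, had 9.36, 8.93 and 9.04 with Dox and 6.46, 6.19 and 6.93 without (2.58, SE 0.21, adjusted p = 4.87e-05). RSAD2, an antiviral protein, was higher by 2.44 and CCL5, a chemokine for T cells, by 3.32. Beside these 9 of 26 NF-κB genes stand the 5 of 14 proteoglycans that were lower. Of those, OGN, OMD, ASPN and ECM2 are adjacent genes, and BGN kept its call in 3 of 6 fits that left out 1 array. Among 29 complement genes the inhibitor CFI and the receptor C3AR1 were lower, by 0.83 and 0.96, and none was higher.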

How the data were processed

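RNA of 12 cultures was hybridized to Clariom D Human arrays. The authors deposited log2 signals with 2 decimals, and the methods of the study name RMA background correction and quantile normalization. Fold changes for RELB, SNAPC1, ATF3 and TSPAN18 were larger here than those the study lists for the same comparison. The deposited values may thus differ from those the study analysed, and the reason was not tested. The submitters' processing notes name RMA and hg38, with no version for the array processing. Of 135750 probe sets, 36176 had 1 gene symbol (33458 genes), 1119 several and 98455 none. Symbols were updated through RefSeq (GRCh38.p14): 25516 matched by Entrez ID, 9899 by symbol, 623 by an older symbol, and 138 not at all.

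All probe sets of the 12 arrays were fitted in 1 limma model of 4 group means (limma 3.58.1, R 4.3.3, 8 residual and 5.43 prior degrees of freedom). Benjamini-Hochberg adjustment ran over the 36176 probe sets. The limits on fold change and p follow the methods of the study, but on the deposited values they need not make the same cut. The scripts were tested on simulated data. Gene lists, the genes named and the comparison itself were chosen with earlier results of these data known. Named genes were DMPK and the CUG-binding proteins, and the 15 highest and 15 lowest fold changes among called probe sets whose groups did not overlap. From the lists came up to 8 called members, the first 3 genes, and all members of lists of up to 15 genes. The others were the 10 highest and 10 lowest interactions among called genes, 8 microRNA genes, and 3 genes of each inflammatory list. Each gene named outside these rules (markers and the chromosome 9 neighbours) was chosen after its values were seen.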

Additional observations from a re-analysis of the deposited data

Results flagged for a closer look

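For 48 genes named above, the log2 fold change with Dox differed between MIO-M1-CTG(648) and MIO-M1-CTG(0) cells, by the limma interaction at an adjusted p under 0.05, in 18 genes upward and in 30 downward. Over all 36176 probe sets 58 (0.16%) differed upward and 55 (0.152%) downward at this limit. Named genes were chosen in part by their interaction or their change in MIO-M1-CTG(648) cells, so the 48 do not measure how often the lines differed. Each line was 1 stable line, so the repeat and other differences of the lines cannot be told apart. The differences below are MIO-M1-CTG(648) minus MIO-M1-CTG(0).

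In matrix and adhesion genes they were -2.54 for ASPN, -2.32 for OGN, -1.94 for OMD, -2.14 for COL14A1, -1.87 for COL11A1, -1.91 for LOXL3 and -2.30 for MFAP4. They were -3.59 for SCUBE3, -2.77 for THBS2, -1.43 for POSTN, -2.71 for ITGB4, -1.84 for ITGA11 and 2.06 for ADAMTS1. POSTN passed no threshold in MIO-M1-CTG(648) cells alone. ADAMTS1 averaged 5.95 with Dox and 5.0 without in MIO-M1-CTG(648) cells, where a fall could hardly be seen. ASPN averaged 4.10 with Dox and 3.80 without in MIO-M1-CTG(0) cells, where a fall could hardly be seen.

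In growth and mesenchymal genes the differences were -2.03 for MYLK, -1.40 for PDGFRB, -1.39 for BMP6, -2.48 for FGF7, -1.43 for FGFR2, 1.44 for DUSP4, -1.94 for PLXDC1, 2.84 for PGF, 2.89 for DIRAS3 and -2.75 for SEMA3E. In stress and lipid genes they were 2.11 for ATF3, 1.84 for GADD45A, 1.32 for PPP1R15A, 2.03 for OSGIN1, 2.15 for HMOX1, -1.73 for CBS, -1.20 for PSAT1, -1.53 for INSIG1, -1.43 for FADS2 and 1.95 for PLA2G4C.

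Secreted, vesicle and glial genes differed by -4.42 for PI15, -3.76 for SELENOP, 2.31 for SCG2, -2.20 for SCG5, 1.58 for RAB3B, 1.55 for SYTL2 and -1.71 for FABP7. The others were 2.12 for NR1D1, 1.91 for SNAPC1, -1.88 for TSPAN18, -1.20 for CFI, -1.29 for MIR448, and among inflammatory genes 2.85 for RELB, 2.07 for RSAD2 and 3.09 for CCL5.

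Outside the probe sets with 1 gene symbol, 913 of 99574 (0.917%) passed the threshold with Dox in MIO-M1-CTG(648) cells, against 866 (0.87%) in MIO-M1-CTG(0) cells.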

How the results depend on the processing

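With an adjusted p under 0.05 the counts higher and lower were 94 and 53 in MIO-M1-CTG(648) cells, 58 and 55 for the interaction, and 0 and 0 in MIO-M1-CTG(0) cells. A log2 fold change over 1 left 146 and 93 in MIO-M1-CTG(648) and 25 and 30 in MIO-M1-CTG(0) cells. The t-test that the methods name for 2 groups, beside limma for the arrays, gave 212 and 197 at the same limits, and 70 and 57. In MIO-M1-CTG(648) cells 158 of those higher and 140 of those lower were shared with the main calls, and 50 named genes lost their call. A fit to the 6 arrays of MIO-M1-CTG(648) alone gave 272 higher (244 shared) and 222 lower (191 shared), and 16 named genes lost their call. All probe sets, with or without a symbol, gave 799 and 766, 576 and 805 for the interaction, and 633 and 504. An intensity trend gave 508 lower interactions. A variance model fitted to the probe sets with 1 symbol alone, chosen after seeing the data, gave 210 and 217 in MIO-M1-CTG(0) cells. The 6 arrays of MIO-M1-CTG(0) alone gave 87 higher ones.

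Leaving out each array in turn gave 241 to 289 higher and 184 to 267 lower probe sets in MIO-M1-CTG(648) cells, the fewest lower without Dox-induced replicate 2, and 76 to 137 higher ones in MIO-M1-CTG(0) cells, the fewest without non-induced replicate 1. Interactions past the threshold were fewest without Dox-induced MIO-M1-CTG(0) replicate 3, at 197 positive and 233 negative. Of 119 named genes past the threshold in MIO-M1-CTG(648) cells, 91 stayed past it in all 6 fits that left out 1 array of that line. Among genes not past it, the sign turned in such fits for CHGA (-0.00 to 0.33), CNN1 (-0.33 to 0.02), FN1 (-0.18 to 0.24), HSPA5 (-0.02 to 0.07), MT3 (-0.15 to 0.12), SPRY2 (-0.21 to 0.20) and TAGLN (-0.10 to 0.28). No sign turned under the other alternatives run. The cause of these moves was not tested.

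Replicate numbers did not pair the cultures, with correlations of same-numbered deviations of -0.06, 0.07 and -0.06. With the replicate number as a block, 308 probe sets were higher (288 of them shared) and 251 lower (227 shared), and 10 named genes lost their call. With 3 arrays in each group and signals below 5 for many probe sets, small or dim changes could not be resolved.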
